A study of Mus musculus with 8 samples.

Results

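Collagens are the main structural proteins of the extracellular matrix, and their 44 mouse genes were followed here in the hippocampus of Nr2f1 heterozygotes and wild-type (WT) mice. The genes were taken by symbol, as every row of the count table whose Ensembl identifier maps to a name of the form Col, a number, the letter a and a number. They are 44 of 37310 genes in the table, and 43 passed the filter on low counts and were tested. They were divided by protein family into 11 fibrillar genes, 6 basement membrane genes (type IV) and 27 others. The others comprised 9 fibril-associated (FACIT), 6 beaded filament (type VI), 3 short-chain network (types VIII and X), 2 multiplexin, 4 transmembrane, and 3 anchoring or remaining genes.

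Every collagen is a trimer of chains wound around each other in a triple helix, and the class sets what the trimer builds. Fibrillar chains form the tensile fibrils of connective tissue, type IV chains the sheet under epithelia and around vessels, and FACIT chains decorate fibrils. In brain, fibrillar collagen is known mainly from the meninges and vessel walls, while type IV networks line vessels, the pial surface and the choroid plexus, the epithelium that secretes cerebrospinal fluid. Some transmembrane and FACIT collagens are made by neurons.

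The animals were B6.129 F1 hybrids aged 3 months and labelled male, with 4 heterozygous for an Nr2f1 knockout (titled Nr2f1 het) and 4 WT, untreated. Each library came from the hippocampus of a separate animal, and how the knockout allele was built is not given in the sources used here. Nr2f1 (COUP-TFI) is an orphan nuclear receptor with roles in cortical and hippocampal development. The libraries held 58717305 to 90043971 gene counts, and hippocampal neuron markers were present in all (Prox1, a dentate granule cell gene, at 48.3 to 65 CPM and Camk2a at 5232 to 6299 CPM). CPM is the number of counts per 1000000 after normalisation. Nr2f1 itself was at 53.4, 49.5, 54.1 and 51.6 CPM in WT and 32.4, 31, 33.5 and 28.5 CPM in heterozygotes (libraries 1 to 4 of each genotype in order, as throughout), a log2 fold change of -0.73 ± 0.0511 (SE; edgeR adjusted p = 7.32e-05). Xist, the RNA of the inactive X chromosome, lay at 463 to 601 CPM and the 14 Y-linked genes held 3 counts in all 8 libraries together, which goes against the label male in both genotypes alike.

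The 4 sequences that follow lie upstream of the chain pairs described most closely here. They show the X-linked type IV pair and the type VIII pair, 5′ to 3′ on the gene's own strand. They come from RefSeq promoter windows, end before the first annotated base of the gene, and capitals mark a GC box (GGGCGG or its reverse complement CCGCCC).
Col4a5 (chrX:141475169-141475369, GRCm38.p6, strand plus): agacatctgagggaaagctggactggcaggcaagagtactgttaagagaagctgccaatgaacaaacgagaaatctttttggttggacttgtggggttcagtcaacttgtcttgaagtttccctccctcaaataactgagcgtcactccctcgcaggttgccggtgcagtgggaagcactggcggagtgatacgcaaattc
Col4a6 (chrX:141474096-141474326, GRCm38.p6, strand minus): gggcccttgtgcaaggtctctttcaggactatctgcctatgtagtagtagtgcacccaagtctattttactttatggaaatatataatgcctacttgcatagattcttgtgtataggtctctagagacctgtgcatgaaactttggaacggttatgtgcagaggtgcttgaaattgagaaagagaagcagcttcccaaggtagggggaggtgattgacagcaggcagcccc
Col8a1 (chr16:57754738-57754987, GRCm38.p6, strand minus): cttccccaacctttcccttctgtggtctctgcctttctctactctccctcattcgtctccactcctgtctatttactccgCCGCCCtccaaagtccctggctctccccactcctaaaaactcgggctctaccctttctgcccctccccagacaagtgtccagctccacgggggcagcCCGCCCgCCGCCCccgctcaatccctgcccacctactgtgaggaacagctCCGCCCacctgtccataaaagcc
Col8a2 (chr4:126286544-126286792, GRCm38.p6, strand plus): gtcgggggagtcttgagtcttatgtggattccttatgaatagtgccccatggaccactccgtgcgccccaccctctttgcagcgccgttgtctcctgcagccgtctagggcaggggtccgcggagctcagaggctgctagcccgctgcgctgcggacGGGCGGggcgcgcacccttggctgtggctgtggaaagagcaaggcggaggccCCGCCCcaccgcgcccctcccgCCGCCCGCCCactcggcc
The stretches of Col8a1 and Col8a2, which lie on chromosomes 16 and 4, each hold 4 GC boxes with overlaps counted, and those of Col4a5 and Col4a6 hold none up to the first annotated base. Over the full 250 bases before the RefSeq start, a GC box was found in 22 of 38 collagen windows (57.9%, from 35 of the 44 genes), Col4a5 and Col4a6 included, and in 32.7% of all 32851 RefSeq windows. CCAAT was found in 34.2% of collagen windows and 33.8% of all, TATAAA in 13.2% and 12.4%. AGGTCA, the core element that nuclear receptors bind, was found in 8 of 38 collagen windows (21.1%) and in 14% of all windows, each searched on both strands.

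Across the family, 5 of 43 tested collagens rose in heterozygotes and 0 fell (edgeR adjusted p under 0.05). The risen genes were Col4a5, Col4a6, Col27a1, Col6a3 and Col18a1. They make up 11.6% of the tested collagens. Of all 17913 tested genes, 535 (2.99%) were called, 2.62% higher and 0.368% lower. The median log2 fold change was 0.30 over the collagens and -0.0056 over all tested genes, and 30 of the 43 had a positive value. Libraries of the genotypes did not overlap for 14 collagens that were higher and 1 that was lower, against 6.99% and 3.59% of all tested genes. Without correction, an edgeR p under 0.05 was reached by 17 higher and 2 lower collagens (10.0% and 7.11% of all genes). The DESeq2 Wald test called 10 higher and 1 lower, and limma-voom 10 and 0. Over all genes these tests called 1183 and 628 in either direction. As a share of gene counts, collagens took 0.0708% to 0.0757% of each WT library and 0.0817% to 0.0893% of each heterozygote library, ranges that did not overlap.

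The members were then taken by class. Fibrillar genes had a median log2 fold change of 0.11, with 1 of 11 called higher. Basement membrane genes had a median of 0.98, with 2 of 6 called higher. The remaining classes together had a median of 0.31, with 2 of 26 tested called higher. No class had a member called lower by edgeR. In summed level, the heterozygote excess sat in the remaining classes, at 345 to 382 CPM in WT and 410 to 470 CPM in heterozygotes. Fibrillar genes summed to 176 to 188 CPM in WT and 183 to 200 CPM in heterozygotes, and type IV genes to 193 to 199 and 189 to 219 CPM, so both overlapped. These class values are descriptions of the members, and the difference between classes was not tested.

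**Figure D1:**
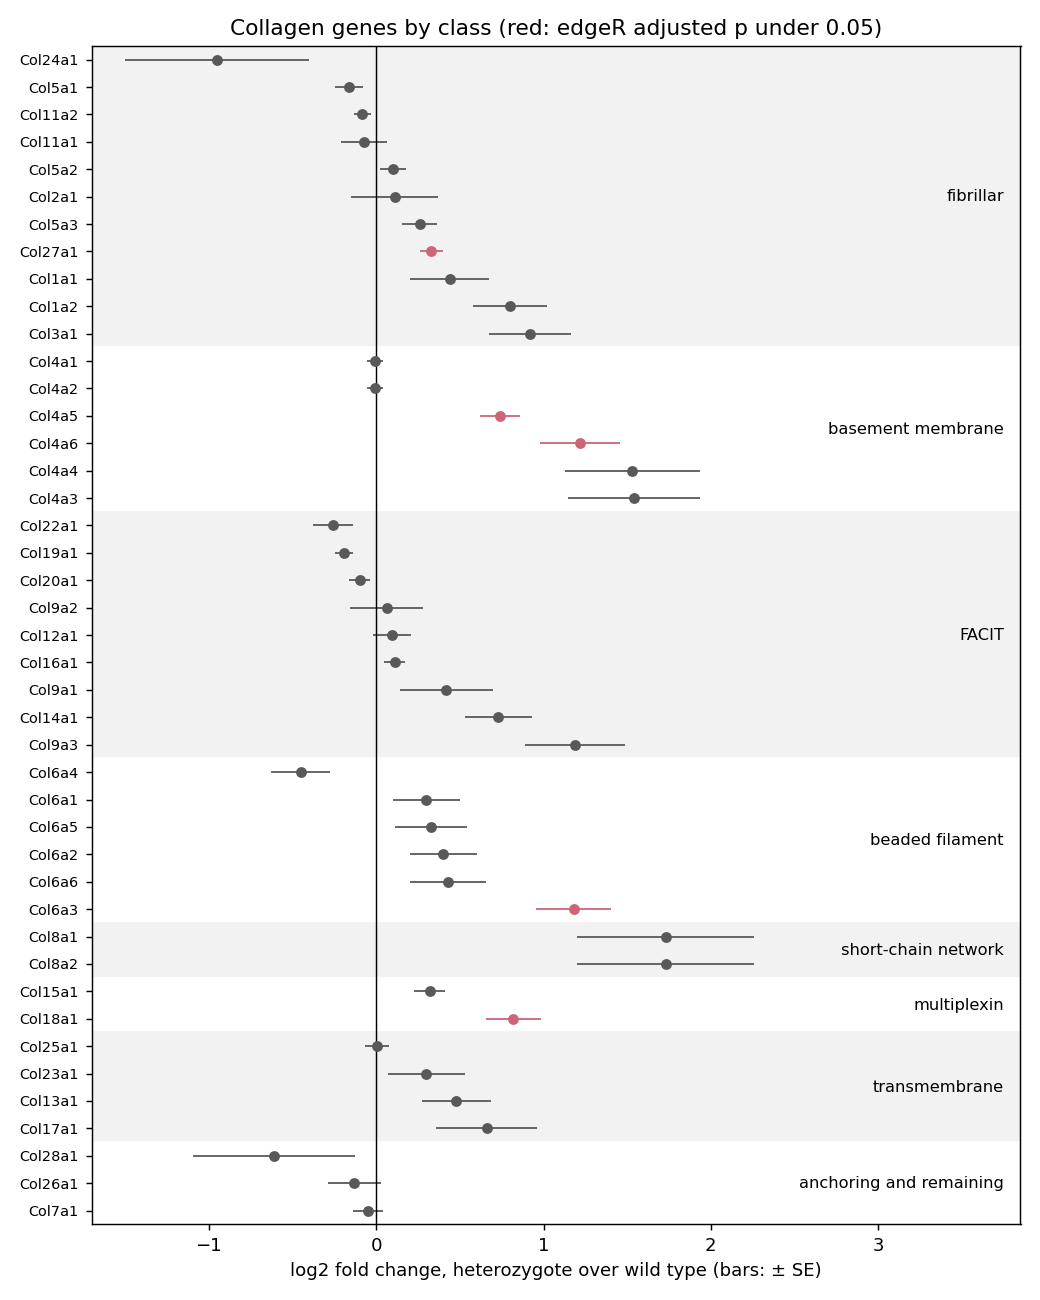
Log2 fold change of heterozygote over WT (x axis, bars ± SE) for the 43 tested collagen genes, ordered within class. Red points are the 5 genes past an edgeR adjusted p of 0.05, and Col4a1 and Col4a2 lie at 0 while the other 4 type IV genes lie between 0.74 and 1.54.

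Type IV genes sit in head-to-head pairs. Col4a1 and Col4a2 encode the ubiquitous chains of vessel basement membranes. On chromosome 8 their annotated starts lie at a distance of -21 bases in the GRCm38 annotation, so the transcripts overlap. They were the most abundant type IV genes per length, at 10.7 and 16 CPM per kb of exon over all libraries, against 0.204 to 1.05 CPM per kb for the other 4. Col4a1 was at 81.6, 78.5, 84.2 and 76.7 CPM in WT and 82, 72.8, 85.8 and 79.2 CPM in heterozygotes. Col4a2 was at 108, 104, 108 and 105 CPM in WT and 112, 97.1, 114 and 102 CPM in heterozygotes. In both genes the genotypes overlapped, with heterozygotes spread more widely than WT. Their log2 fold changes were -0.0056 ± 0.0494 (SE; edgeR adjusted p = 0.973) and -0.004 ± 0.0477 (SE; edgeR adjusted p = 0.979). The first exons of these genes overlap on opposite strands and the kit marks no strand, so a few reads there cannot be assigned to either.

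The X-linked pair rose. Col4a5 and Col4a6, whose starts lie 1309 bases apart, encode chains of the epithelial and smooth muscle networks. Col4a5 was at 4.42, 5.93, 4.14 and 6.45 CPM in WT and 8.26, 8.95, 8.98 and 9.07 CPM in heterozygotes. Every heterozygote library lay above every WT library, and WT libraries 1 and 3 were the lowest. The means were 8.82 ± 0.374 CPM in heterozygotes and 5.24 ± 1.13 CPM in WT (mean ± SD, n = 4 per genotype), a log2 fold change of 0.74 ± 0.122 (SE; edgeR adjusted p = 0.00971). This call was kept in each of 8 fits that left out 1 library, with edgeR adjusted p from 0.00152 to 0.0351. Col4a6 was at 0.413, 1.09, 0.99 and 1.37 CPM in WT and 2.38, 1.91, 2.7 and 2.17 CPM in heterozygotes. Again the genotypes did not overlap, with WT library 1 the lowest. Its log2 fold change was 1.22 ± 0.239 (SE; edgeR adjusted p = 0.0216), and the call was lost without heterozygote library 1, 3 or 4 or WT library 3 (highest edgeR adjusted p = 0.0718).

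Col4a3 and Col4a4 encode the chains that join the Col4a5 product in the epithelial network, best known from the kidney filter, and start 72 bases apart on chromosome 1. Col4a3 was at 0.48, 1.6, 0.526 and 2.57 CPM in WT and 3.99, 3.96, 3.92 and 3.77 CPM in heterozygotes. Col4a4 was at 0.173, 1.39, 1.24 and 2.47 CPM in WT and 3.89, 4.28, 4.12 and 3.5 CPM in heterozygotes. In heterozygotes both genes lay in a narrow band from 3.5 to 4.28 CPM, while WT libraries ran from 0.173 to 2.57 CPM. The counts behind the lowest WT values were 36 and 13. Neither passed, at log2 fold changes of 1.54 ± 0.393 (SE; edgeR adjusted p = 0.0858) and 1.53 ± 0.403 (SE; edgeR adjusted p = 0.0947). Without WT libraries 1 and 3 the log2 fold changes were smaller, 0.90 and 1.02, and both passed (edgeR adjusted p = 0.0371 and 0.0414).

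**Figure D2:**
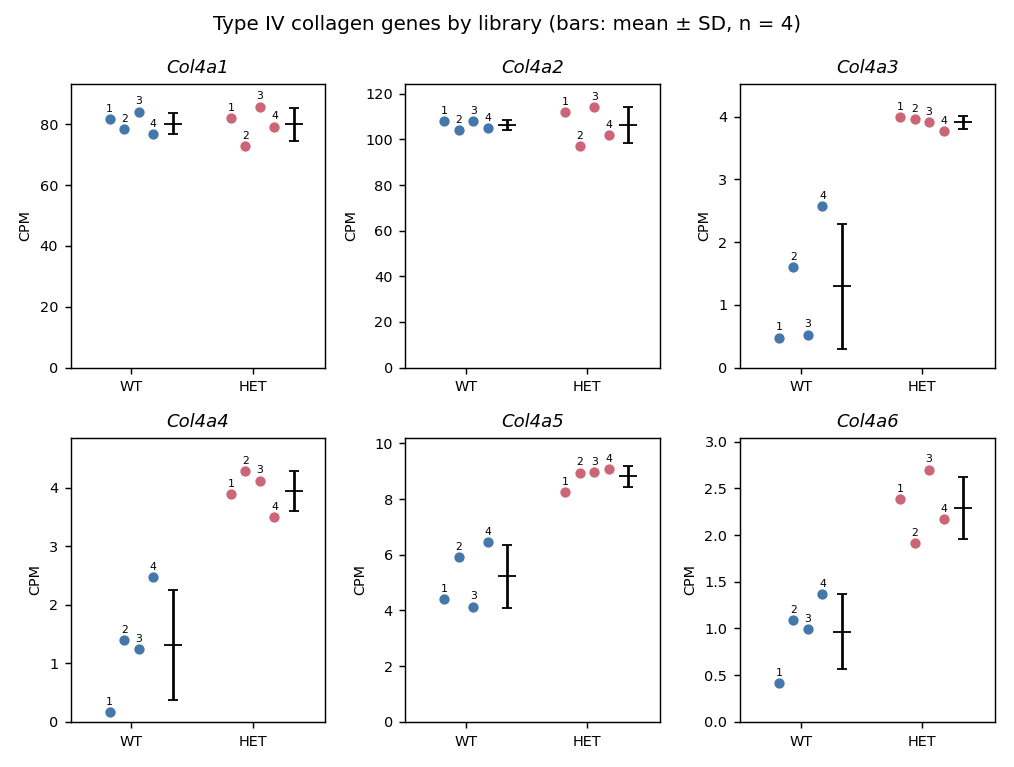
CPM of the 6 type IV collagen genes in each library (numbered points, y axis from 0), with mean ± SD (n = 4) beside them. Col4a1 and Col4a2 overlap between genotypes, and the heterozygote points of Col4a3 to Col4a6 all lie above the WT points.

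Ratios of counts within a library do not depend on scaling, and 14 ratios between chains, chosen after their values were seen, were compared on the log2 scale (permutation test over libraries, exact and two-sided). With 4 against 4 the smallest p is 0.0286, which 4 of the 14 reached. After Benjamini-Hochberg adjustment over the 14 these stood at 0.1, so no ratio passed. With only 4 of the 14 at the smallest p, even a fully separated ratio could not pass. The adjusted values therefore cannot decide whether such a ratio changed. Col4a2 to Col4a1 was 1.33, 1.33, 1.28 and 1.37 in WT and 1.36, 1.33, 1.33 and 1.28 in heterozygotes (mean log2 difference 0.00085; exact permutation p = 0.943, adjusted 0.971). Col4a5 to Col4a1 was 0.0542, 0.0756, 0.0491 and 0.0841 in WT and 0.101, 0.123, 0.105 and 0.115 in heterozygotes, which did not overlap (log2 difference 0.78; exact permutation p = 0.0286, adjusted 0.1). Col4a3 to Col4a1 and Col4a6 to Col4a1 also separated, by 1.96 and 1.37 on the log2 scale (exact permutation p = 0.0286, adjusted 0.1, for each). Within the pairs, Col4a4 to Col4a3 and Col4a6 to Col4a5 overlapped, with log2 differences of 0.13 and 0.58 (exact permutation p = 0.629 and 0.0571, adjusted 0.88 and 0.133).

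The short-chain collagens of type VIII had the largest fold changes of the family and did not pass. Col8a1 and Col8a2 encode the chains of a hexagonal network known from the corneal endothelial membrane and vessel walls. Col8a1 was at 0.973, 5.56, 1.89 and 8.92 CPM in WT and 12.3, 16, 16.7 and 14.2 CPM in heterozygotes. Col8a2 was at 1.2, 7.57, 2.23 and 10.4 CPM in WT and 18.5, 19.2, 16.7 and 18.8 CPM in heterozygotes. Heterozygote libraries lay together and above all WT libraries, which spread from 0.973 to 8.92 and from 1.2 to 10.4 CPM. The log2 fold changes were 1.73 ± 0.527 (SE; edgeR adjusted p = 0.161) and 1.73 ± 0.528 (SE; edgeR adjusted p = 0.163), or 3.33-fold and 3.32-fold. The ratio of Col8a2 to Col8a1 was 1.23, 1.36, 1.18 and 1.16 in WT and 1.51, 1.2, 0.999 and 1.33 in heterozygotes. No difference in its mean was shown (log2 difference 0.014, exact permutation p = 0.914, adjusted 0.971). On the log2 scale it spread more in heterozygotes, with an SD of 0.25 against 0.102 in WT. Limma-voom and the non-robust edgeR fit called both genes, as did edgeR in the odd-numbered libraries. With spike-in scaling edgeR also called both, but odd- and even-numbered libraries had received different spike-in mixes, which that scaling does not allow for. Col10a1, the cartilage growth plate gene and the third of this class, had 2 to 22 counts and was not tested, at 0.0933, 0.0346, 0.1 and 0.0667 CPM in WT and 0.102, 0.0752, 0.243 and 0.0247 CPM in heterozygotes.

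Multiplexins are basement membrane proteoglycans, and the precursor of endostatin is one of them. Its gene Col18a1 was at 4.6, 5.55, 4.96 and 8.05 CPM in WT and 9.74, 9.47, 12.1 and 9.85 CPM in heterozygotes. No WT library reached a heterozygote one, and WT library 4 came nearest. The means were 10.3 ± 1.2 CPM in heterozygotes and 5.79 ± 1.56 CPM in WT (mean ± SD, n = 4 per genotype), a log2 fold change of 0.82 ± 0.163 (SE; edgeR adjusted p = 0.0306). The call was kept in only 1 of the 8 fits without a library, the one without WT library 4, and adjusted p reached 0.0928 in the others (edgeR). Col15a1 was at 2.77, 2.8, 2.56 and 2.74 CPM in WT and 3.38, 3.22, 3.41 and 3.52 CPM in heterozygotes, a smaller difference that also did not overlap. Its log2 fold change of 0.32 ± 0.093 (SE; edgeR adjusted p = 0.0917) did not pass.

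Among fibrillar genes only Col27a1 passed in the reported edgeR fit, while limma-voom also called Col1a2, and the DESeq2 Wald test Col1a2 and Col3a1. Col27a1, a fibrillar chain known from cartilage, was at 9.08, 10.7, 9.29 and 9.93 CPM in WT and 11.7, 12.6, 13.1 and 11.7 CPM in heterozygotes. The groups were separated by a small step between 10.7 and 11.7 CPM, for a log2 fold change of 0.33 ± 0.0687 (SE; edgeR adjusted p = 0.0244). Leaving out heterozygote library 2 or 3, or WT library 1 or 3, ended the call (highest edgeR adjusted p = 0.0841). Col1a2, with Col1a1 a chain of type I collagen, was at 6.13, 10.5, 8.7 and 13.4 CPM in WT and 15.1, 17.8, 19.9 and 15 CPM in heterozygotes. Col3a1, the type III chain found with it in vessel walls and meninges, was at 1.51, 1.37, 1.99 and 2.54 CPM in WT and 2.75, 3.72, 4.79 and 2.59 CPM in heterozygotes. Neither overlapped between genotypes, and neither passed in the reported edgeR fit, at log2 fold changes of 0.80 ± 0.222 (SE; edgeR adjusted p = 0.114) and 0.92 ± 0.244 (SE; edgeR adjusted p = 0.0765). Both passed by edgeR without WT library 4 (adjusted p = 0.0285 and 0.0304), and Col1a2 also in the non-robust fit and in odd-numbered libraries (edgeR adjusted p = 0.0362 and 0.0375). Col1a1 was at 3.59 to 7.02 CPM in WT and 4.96 to 7.75 CPM in heterozygotes, which overlapped, with a log2 fold change of 0.44 (edgeR adjusted p = 0.398). Like Col1a2, it was called by edgeR without WT library 4 and in odd-numbered libraries.

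The most abundant fibrillar genes did not pass. Col11a1 and Col11a2, the minor fibril chains that set fibril diameter, led the class per length at 5.17 and 4.4 CPM per kb. Col11a1 was at 72.1, 63.7, 73.5 and 60.4 CPM in WT and 80.3, 53.5, 56.8 and 66.6 CPM in heterozygotes. Col11a2 was at 30.4, 34, 31.4 and 28.7 CPM in WT and 29.5, 29.8, 28.6 and 29.7 CPM in heterozygotes. Both overlapped, with log2 fold changes of -0.073 (edgeR adjusted p = 0.845) and -0.082 (edgeR adjusted p = 0.449). Of the type V chains, which nucleate type I fibrils, Col5a2 was at 23.5, 23, 29.4 and 23.3 CPM in WT and 28.3, 24.7, 27.4 and 26.1 CPM in heterozygotes, with WT library 3 the highest of all. Col5a3 was at 3.8, 3.74, 3.38 and 3.38 CPM in WT and 3.57, 4.06, 4.72 and 4.59 CPM in heterozygotes, where only heterozygote library 1 fell within the WT range. Their log2 fold changes were 0.10 (edgeR adjusted p = 0.547) and 0.26 (edgeR adjusted p = 0.219). Col5a1 lay at 24.1 to 28.9 CPM in WT and 21.1 to 27.3 CPM in heterozygotes, a log2 fold change of -0.16 (edgeR adjusted p = 0.358). Col2a1, the cartilage chain, stayed at or below 0.408 CPM in every library. Col24a1 differed more within heterozygotes than between genotypes, from 0.395 CPM in library 4 and 0.476 in library 1 to 1.87 in library 3 and 2.81 in library 2, with WT at 1.82 to 3.64 CPM (log2 fold change -0.95 (edgeR adjusted p = 0.445)).

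Type VI collagen forms beaded filaments from the chains of Col6a1, Col6a2 and Col6a3, and the last of these rose. Col6a3 was at 3.09, 4.72, 2.38 and 3.1 CPM in WT and 5.3, 6.82, 8.84 and 8.87 CPM in heterozygotes. Heterozygote libraries 3 and 4 were highest and WT library 2 came closest to the heterozygotes. The means were 7.46 ± 1.73 CPM in heterozygotes and 3.33 ± 0.992 CPM in WT (mean ± SD, n = 4 per genotype), a log2 fold change of 1.18 ± 0.222 (SE; edgeR adjusted p = 0.0282). The call was kept in 2 of 8 fits without a library, those without heterozygote library 1 or WT library 2, and adjusted p reached 0.0886 in the others (edgeR). Col6a1 was at 42.4, 31.1, 58.1 and 51.1 CPM in WT and 49, 53.6, 65.5 and 56.3 CPM in heterozygotes. Col6a2 was at 8.08, 9.97, 12.8 and 13.1 CPM in WT and 12, 16.4, 17.7 and 11.4 CPM in heterozygotes. Both overlapped, and their log2 fold changes were 0.30 (edgeR adjusted p = 0.514) and 0.40 (edgeR adjusted p = 0.37). The ratio of Col6a3 to Col6a1 overlapped between genotypes as well, with WT library 2 at 0.152 inside the heterozygote range of 0.108 to 0.158 (log2 difference 0.85; exact permutation p = 0.114, adjusted 0.2), so unequal change of the chains was not shown.

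The alternative type VI chains were at 0.123 (Col6a4), 0.523 (Col6a5) and 0.136 (Col6a6) CPM per kb of exon, beside 0.451 for Col6a3. Col6a4 was at 1.09, 1.35, 1.25 and 1.17 CPM in WT and 0.731, 0.715, 1.01 and 1.06 CPM in heterozygotes and was the 1 collagen whose heterozygote libraries all lay below WT, without passing (log2 fold change -0.45 ± 0.176 (SE; edgeR adjusted p = 0.205)). Col6a5 and Col6a6 lay at 3.25 to 6.9 and 0.726 to 1.83 CPM over all libraries and overlapped (log2 fold changes 0.33 (edgeR adjusted p = 0.486) and 0.43 (edgeR adjusted p = 0.357)).

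FACIT genes held the third largest change of the 27 other collagens and no edgeR call. Col9a3, a type IX chain, was at 10.8, 25.4, 14.5 and 27.8 CPM in WT and 41.2, 48.5, 44.4 and 45.9 CPM in heterozygotes. WT libraries 1 and 3 were lowest, libraries 2 and 4 intermediate, and the heterozygotes close together above them. The means were 45 ± 3.04 CPM in heterozygotes and 19.6 ± 8.26 CPM in WT (mean ± SD, n = 4 per genotype), a log2 fold change of 1.19 ± 0.298 (SE; edgeR adjusted p = 0.103). It passed by limma-voom and the DESeq2 Wald test, and by edgeR within even-numbered and within odd-numbered libraries. Its partner chains in type IX trimers did not pass. Col9a2 lay at 5.06 to 6.64 CPM in WT and 3.74 to 7.64 CPM in heterozygotes (log2 fold change 0.063 (edgeR adjusted p = 0.922)), and Col9a1 was below 1 CPM in every library (log2 fold change 0.42 (edgeR adjusted p = 0.486)). Col9a3 to Col9a2 was 2.12, 3.82, 2.85 and 4.29 in WT and 11, 6.36, 5.81 and 9.33 in heterozygotes, with no overlap. The log2 difference was 1.31 (exact permutation p = 0.0286, adjusted 0.1). Unequal change was not shown after adjustment, but that p is the smallest possible, so the adjusted test cannot decide it. An exon of Col9a3 overlaps Tcfl5 on the opposite strand, a gene with 1 to 26 counts per library beside 807 to 4012 for Col9a3.

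Other FACIT genes split by direction. Col14a1, the fibril surface collagen undulin, was at 0.866, 1.26, 0.927 and 1.66 CPM in WT and 1.68, 2.41, 1.83 and 1.97 CPM in heterozygotes, with WT library 4 just under the lowest heterozygote (log2 fold change 0.73 ± 0.2 (SE; edgeR adjusted p = 0.0721)). Col19a1, known from interneurons, was at 34.1, 29.1, 34.5 and 33.6 CPM in WT and 28.5, 29.3, 29.3 and 27.7 CPM in heterozygotes. Except for WT library 2, the WT libraries lay above all heterozygotes, with a log2 fold change of -0.19 ± 0.0545 (SE; edgeR adjusted p = 0.0778). It passed as lower in the DESeq2 Wald test (adjusted p = 0.0268) and without WT library 2. Col16a1 was at 18.2, 20, 18.2 and 18.6 CPM in WT and 18.7, 20.9, 22.3 and 18.9 CPM in heterozygotes and overlapped (log2 fold change 0.11 (edgeR adjusted p = 0.396)). Col12a1, Col20a1 and Col22a1 had log2 fold changes of 0.094, -0.099 and -0.26 and did not pass (edgeR adjusted p = 0.733, 0.446 and 0.293).

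Transmembrane collagens held the neuronal member Col25a1, which encodes a protein that collects in amyloid plaques. Col25a1 was at 151, 133, 157 and 131 CPM in WT and 148, 128, 144 and 153 CPM in heterozygotes, and at 11.1 CPM per kb it was among the 4 most abundant collagens per length with Col4a2, Col6a1 and Col4a1. Its genotypes overlapped, with a log2 fold change of 0.0034 ± 0.0723 (SE; edgeR adjusted p = 0.989). Col23a1 was at 19.1, 16.9, 14.9 and 21.7 CPM in WT and 17.2, 25.8, 29.7 and 16.3 CPM in heterozygotes, and heterozygote libraries 2 and 3 stood above the other 6 (log2 fold change 0.30 (edgeR adjusted p = 0.571)). Col13a1, which acts at the neuromuscular junction, was at 0.786, 1.01, 1.1 and 0.979 CPM in WT and 1.26, 1.14, 1.86 and 1.09 CPM in heterozygotes. Col17a1, of epithelial hemidesmosomes, was at 0.16, 0.334, 0.238 and 0.367 CPM in WT and 0.272, 0.401, 0.531 and 0.518 CPM in heterozygotes. Both overlapped at low levels, with log2 fold changes of 0.48 (edgeR adjusted p = 0.257) and 0.66 (edgeR adjusted p = 0.29).

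The last 3 genes showed no call and no separation. Col7a1, of the anchoring fibrils of skin, was at 6.14, 5.94, 5.21 and 5.34 CPM in WT and 5.98, 4.99, 5.74 and 5.25 CPM in heterozygotes. Col26a1 was at 4.97, 4.87, 4.14 and 4.59 CPM in WT and 3.38, 4.24, 5.7 and 3.32 CPM in heterozygotes. Col28a1 was at 0.466, 0.207, 0.288 and 0.534 CPM in WT and 0.119, 0.376, 0.387 and 0.0493 CPM in heterozygotes, and like Col24a1 it was low in heterozygote libraries 1 and 4. Their log2 fold changes were -0.047 (edgeR adjusted p = 0.845), -0.13 (edgeR adjusted p = 0.719) and -0.61 (edgeR adjusted p = 0.578).

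**Figure D3:**
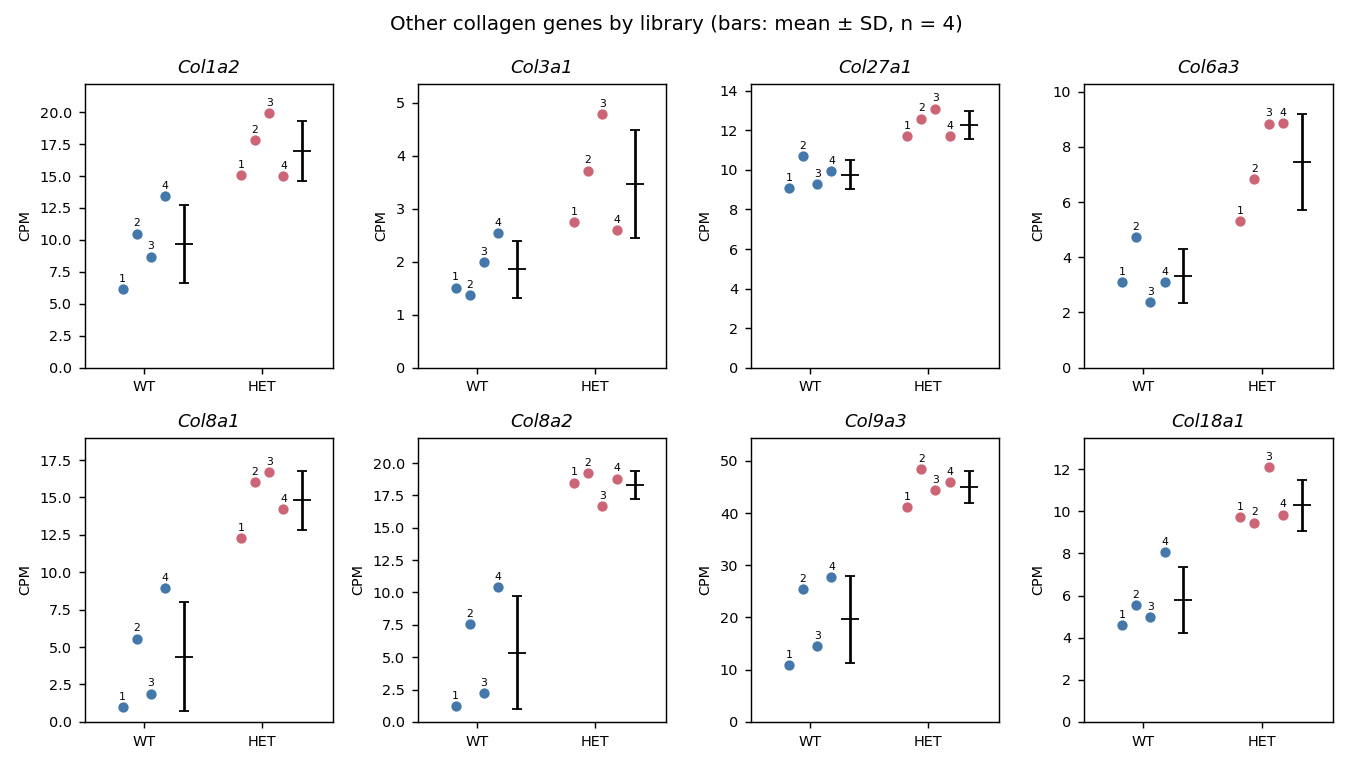
CPM of 8 further collagen genes in each library (numbered points, y axis from 0), with mean ± SD (n = 4). In all 8 the heterozygote points lie above the WT points. This held for 14 of the 43 tested collagens, these 8 included, and for 6.99% of all tested genes. WT libraries 1 and 3 of Col8a1, Col8a2 and Col9a3 lie far below WT libraries 2 and 4.

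**Figure D4:**
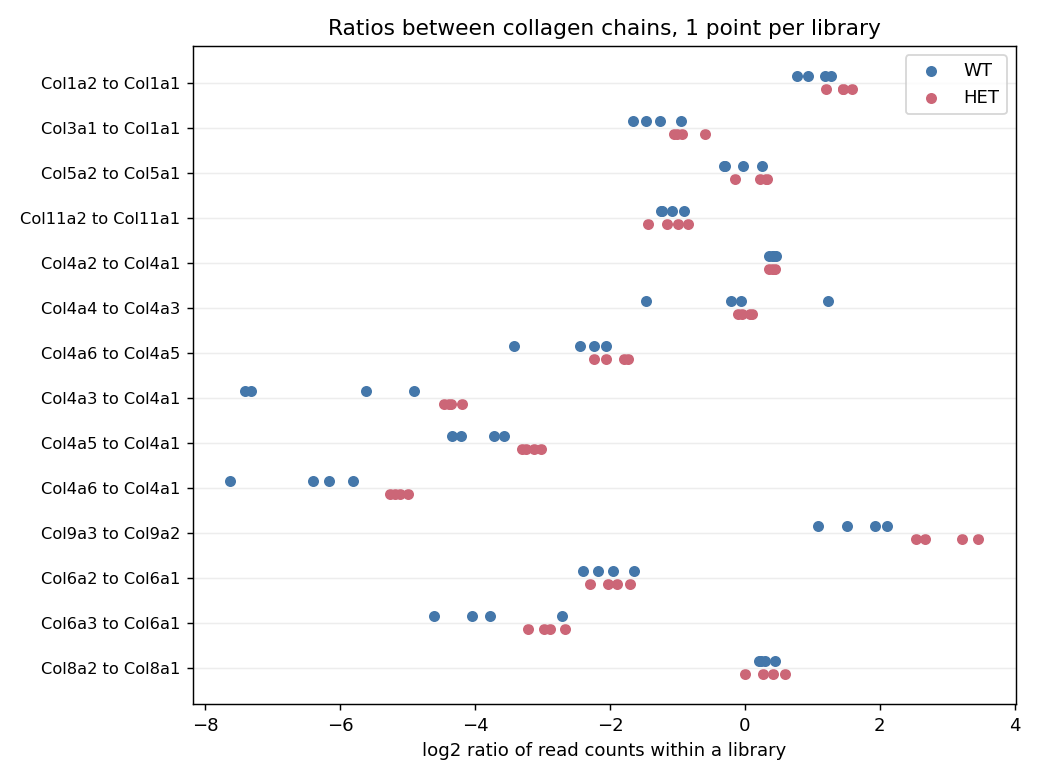
Log2 ratio of read counts between 2 collagen genes within each library (x axis), with 1 point per library. Col4a2 to Col4a1 coincides in all 8 libraries, while Col4a3, Col4a5 and Col4a6 relative to Col4a1, and Col9a3 relative to Col9a2, are separated by genotype.

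Machinery that builds and handles collagen was followed in 6 further lists. No gene in them was called lower by edgeR, where 2.62% of all tested genes were called higher and 0.368% lower. Of 18 genes of chain modification and folding (a further listed gene, Mia3, was not analysed here), 3 rose and the median log2 fold change was 0.14. Serpinh1, the collagen chaperone Hsp47, rose 1.51-fold, at 10.9, 13.1, 14.1 and 14.7 CPM in WT and 22.3, 19.8, 18.1 and 19.9 CPM in heterozygotes, with no overlap (edgeR adjusted p = 0.00822). Crtap, a part of the prolyl 3-hydroxylase complex, rose 1.33-fold and P4hb, the beta subunit of prolyl 4-hydroxylase and a general disulfide isomerase, 1.1-fold (edgeR adjusted p = 0.0351 and 0.0444). Of 13 genes of procollagen cleavage and cross-linking, 2 rose and the median was 0.40. Loxl2, a lysyl oxidase, rose 2.36-fold and Pcolce, an enhancer of procollagen C-proteinase, 2.24-fold (edgeR adjusted p = 0.0196 and 0.0498). Of 9 receptor and uptake genes, 1 rose, the collagen receptor kinase Ddr2 at 1.33-fold (edgeR adjusted p = 0.0278), and the median was 0.15.

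Of 8 tested genes of collagen breakdown and its inhibitors, 2 rose and the median was 0.19. Mmp2, a gelatinase that cleaves type IV collagen, was at 2.72, 3.86, 2.71 and 4.44 CPM in WT and 7, 7.76, 6.98 and 7.07 CPM in heterozygotes, a log2 fold change of 1.06 ± 0.137 (SE; edgeR adjusted p = 0.00411), and its activator Mmp14 rose 1.25-fold (edgeR adjusted p = 0.0272). Basement membrane genes other than collagens had 4 of 15 higher and a median of 0.093. These were the laminin chains Lama5 at 1.52-fold and Lamb2 at 1.19-fold, the linker Nid2 at 2.5-fold and the heparan sulfate proteoglycan Hspg2 at 1.46-fold (edgeR adjusted p = 0.0108, 0.0241, 0.0379 and 0.0465). In this list Lamc1, the common laminin gamma chain, lay between 49.7 and 54.8 CPM in all 8 libraries. Of 18 fibril-associated matrix genes, 3 rose and the median was 0.33, with Postn at 2.23-fold, Prelp at 1.46-fold and Thbs1 at 1.87-fold (edgeR adjusted p = 0.00229, 0.00899 and 0.0481).

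Markers of cell types that border the hippocampus were read next, and their association with the collagens was not tested. All 13 choroid plexus epithelium markers were higher without overlap of the libraries, as were 6.99% of all tested genes. Their median log2 fold change was 1.90, though 0 passed edgeR adjusted over all genes (12 at an unadjusted p under 0.05). Their summed level was 4130 to 4668 CPM in heterozygotes and 84.7, 1453, 449 and 2128 CPM in WT libraries 1 to 4, with no marker at 0 in any library. Of 11 meningeal fibroblast markers other than collagens, 1 rose (Islr, 1.48-fold, edgeR adjusted p = 0.00899). Their sums were 110 to 282 CPM in WT and 367 to 452 CPM in heterozygotes, of which Igf2 alone made up 43.1 to 156 and 229 to 271 CPM. Libraries did not overlap for 4 of the 11, and Foxc1 was at 1.05-fold. The mean log2 score of the list overlapped, with WT library 4 at 0.24 and heterozygote libraries 1 and 4 at 0.21 and 0.10. Of the 11 genes, 4 are also in the fibril-associated list. Of 6 ependymal markers, 4 rose (as did 2.62% of all tested genes), among them Dynlrb2 (3.08-fold) and Mia (2.52-fold), with sums of 10.4 to 20.7 and 29.8 to 45.3 CPM (edgeR adjusted p = 0.0211 and 0.00899).

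Vessel markers had overlapping sums. The 9 endothelial markers summed to 176 to 196 CPM in WT and 181 to 189 CPM in heterozygotes, with 0 called (edgeR; 1 higher and 1 lower at an unadjusted p under 0.05). Tek and Kdr, the lowest in p, had log2 fold changes of -0.14 (edgeR adjusted p = 0.202) and 0.26 (edgeR adjusted p = 0.24). The 9 mural cell markers summed to 194 to 202 and 194 to 214 CPM, with Rgs5 and Vtn the most abundant. Acta2 was the 1 that rose, 1.46-fold (edgeR adjusted p = 0.0241), and at an unadjusted p under 0.05 Vtn was higher and Cspg4 lower (1.19-fold and 0.892-fold, edgeR adjusted p = 0.107 and 0.228). The difference between these lists and those above was not tested. In bulk RNA, more cells of a type and more RNA per cell cannot be told apart.

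The order of the WT libraries was compared with that of the choroid plexus score, the mean log2 CPM of its markers centred on the 8 libraries. The score was -3.56, -0.18, -1.65 and 0.35 in WT libraries 1 to 4 and 1.16 to 1.40 in heterozygotes. The exact WT order of that score (libraries 4, 2, 3, 1) was seen in 12 of 43 collagens (27.9%) and in 5.61% of all tested genes. Those collagens were Col4a3, Col4a4, Col4a6, Col8a1, Col8a2, Col9a3, Col18a1, Col1a1, Col1a2, Col5a1, Col14a1 and Col17a1. Of the called genes, Col4a5, Col6a3 and Col27a1 had other exact WT orders, though WT libraries 1 and 3 were the lowest in each, as in the score. In Col6a3 library 1 lay just below library 4, at 3.09 and 3.1 CPM. How many of all genes share these lowest libraries was not counted. The comparison of orders was chosen after the values were seen.

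Once the choroid plexus score was added to the fit, 0 collagens passed in edgeR (4 higher and 1 lower at an unadjusted p under 0.05). Calls over all genes fell from 535 to 1 in that fit, so the loss was not particular to collagens. The log2 fold changes of Col8a1 and Col8a2 were then 0.042 and 0.032, of Col4a3 and Col4a4 0.11 each, of Col4a5 0.38 and of Col6a3 0.96. With the meningeal score, 0 passed as well (6 higher and 5 lower at an unadjusted p under 0.05), and 3 of all genes did. The meningeal score left Col6a3 at a log2 fold change of 1.14, Col8a2 at 0.93, Col4a6 at 0.70 and Col4a5 at 0.47 (edgeR adjusted p = 0.439, 0.793, 0.541 and 0.375). With the same score Col18a1 stood at 0.37, Col27a1 at 0.21, Col3a1 at 0.20 and Col1a2 at 0.17. In the reported fit these last genes were at 0.82, 0.33, 0.92 and 0.80. Every heterozygote scored above every WT library for the choroid plexus, so in that fit tissue makeup and genotype cannot be told apart. The meningeal score overlapped between genotypes. With so few calls over all genes, the fit with it cannot separate its part in the result from that of genotype.

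**Figure D5:**
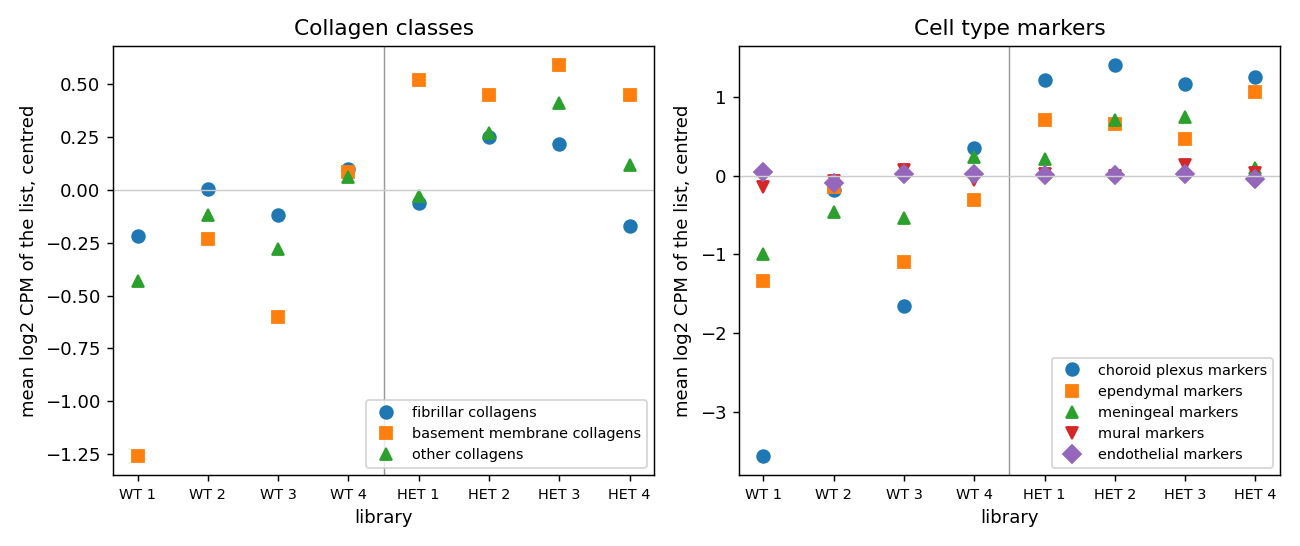
Mean log2 CPM of each list, centred over the 8 libraries (y axis), for collagen classes (left) and cell type markers (right) by library. Type IV collagens and choroid plexus markers are lowest in WT library 1 and highest in the heterozygotes, while endothelial and mural markers lie between -0.14 and 0.14.

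Odd- and even-numbered libraries had received different spike-in mixes (ratio of ERCC-00130 to ERCC-00002 at 1.2 to 1.28 in odd-numbered and 0.165 to 0.186 in even-numbered libraries), and the odd and even sets were fitted apart. Col4a5 had a log2 fold change of 1.03 in the odd-numbered and 0.54 in the even-numbered libraries (edgeR adjusted p = 0.0032 and 0.0806). For Col4a6 these were 1.86 and 0.72 (edgeR adjusted p = 0.0186 and 0.295), for Col18a1 1.21 and 0.50 (0.00252 and 0.423), for Col6a3 1.42 and 1.01 (0.0596 and 0.19) and for Col27a1 0.45 and 0.24 (0.0527 and 0.497). Each set held 2 libraries per genotype. All 5 kept their direction in both sets, which was fixed in advance because their genotypes did not overlap in the full set of libraries. The low WT libraries 1 and 3 are both in the odd set.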

How the data were processed

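The tools named are STAR 2.4.2a, HTSeq, FastQC and DESeq2, and the builds mm9 and NCBIM37, per the submitters' processing notes. The sources used here do not give the settings, gene annotation or strand mode of the counting. The authors deposited raw read counts per Ensembl gene for the 8 libraries. Per the labels' protocols, cDNA came from a NuGEN Ovation kit that does not mark strand. The 92 spike-in rows were left out of library sizes and tests. Symbols (GENCODE, GRCm38) matched 32620 of 37310 identifiers, and exon lengths came from the same annotation.

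From the counts, TMM-normalised CPM were computed and filterByExpr applied (minimum count 10, total 15). Genotypes were compared over all 17913 genes that passed, with the robust quasi-likelihood F test of edgeR 4.0.16 (R 4.3.3). The test is two-sided, and a call needs a Benjamini-Hochberg adjusted p under 0.05. The standard error is the log2 fold change over the root of F. DESeq2 1.42.0 and limma 3.58.1 were alternatives. Log2 CPM scores used a prior count of 2. The edgeR step was tested on simulated counts.

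Values per library are given for 33 collagens: those called, those with an unadjusted p under 0.05 and the 3 highest of each class in CPM. From each other list up to 4 called genes are named, or else the 2 with the lowest p. Lamc1 and the markers Prox1, Camk2a, Igf2, Foxc1, Rgs5, Vtn and Cspg4 were chosen after their values were seen. The members, lists and tests were chosen with earlier results of these data known. P-values rest on 4 animals per genotype. Within a genotype no 2 libraries agreed within sampling noise (chi-square per degree of freedom 7.42 to 25).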

Additional observations from a re-analysis of the deposited data

Results flagged for a closer look

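In 7 of 86 groups of 4 libraries, 1 library stood far from the other 3, where chance gives about 1 in 20. Among called genes, Col4a5 was lowest in heterozygote library 1, at 8.26 CPM beside 8.95 to 9.07, and Col18a1 was highest in heterozygote library 3, at 12.1 CPM beside 9.47 to 9.85. Col6a6 was highest in the same library, at 1.83 CPM beside 1.25 to 1.33. In WT, Col19a1 was lowest in library 2, at 29.1 CPM beside 33.6 to 34.5, and Col5a2 was highest in library 3, at 29.4 CPM beside 23 to 23.5. Col22a1 was highest in WT library 1, at 4.54 CPM beside 3.49 to 3.65, and Col2a1 in WT library 2, at 0.38 CPM beside 0.276 to 0.293.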

How the results depend on the processing

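The count of risen collagens was 5 in the reported fit. It was 5 with DESeq2 size factors, with upper quartile scaling, with a filter of 1 CPM in 4 libraries and without WT libraries 1 and 3, and 6 with spike-in scaling. It was 10 with the DESeq2 Wald test and with limma-voom, 11 with the non-robust fit and 3 without the low-count filter. It was 9 in odd-numbered and 2 in even-numbered libraries, and 0 with either score as a covariate. Leaving out 1 library gave 1 to 10, with 1 without heterozygote or WT library 3 and 10 without WT library 4. Fallen collagens numbered 0, or 1 with the DESeq2 Wald test, and 0 to 1 without 1 library. Of the 5 reported genes, 1 was among the 6 called with spike-in scaling (Col6a3) and 1 among the 5 called without WT libraries 1 and 3 (Col4a5).

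Over all genes the 535 calls became 185 with spike-in scaling, 1183 with the DESeq2 Wald test, 628 with limma-voom and 617 with the non-robust fit. They became 557 in odd-numbered and 78 in even-numbered libraries, and 1 and 3 with the choroid plexus and meningeal scores. There were 170 without WT libraries 1 and 3, and 171 to 767 without 1 library. Nr2f1 lost its call with spike-in scaling (log2 fold change -0.64, edgeR adjusted p = 0.897). The spike-ins took 0.0431% to 0.0491% of counts in odd-numbered libraries and 0.0713% to 0.0787% in even-numbered ones, which received different mixes. Scaling by their total therefore sets odd and even libraries apart, so results with it are not a check on the genotype difference. That scaling moved the median of all genes from -0.0056 to 0.091, and the sign of 5 collagens near 0 turned positive with it (Col4a1, Col4a2, Col7a1, Col11a1 and Col11a2, none called). The type IV median of 0.98 became 1.44 in odd-numbered libraries, 0.11 with the choroid plexus score and 0.54 with the meningeal score, and that of the other classes, 0.31, became 0.063 and 0.088 with these scores. Without 1 library the medians were 0.08 to 0.24 (fibrillar), 0.83 to 1.16 (type IV) and 0.19 to 0.38 (others). With the replicate number as a block 2 collagens rose (Col27a1 and Col4a5) and 406 genes passed. No sign that the numbers pair the animals was seen, though a pairing is not excluded. Same-numbered libraries had correlations of 0.03, -0.04, -0.09 and -0.08 in their deviations from the genotype means. Differently numbered ones had -0.12 to 0.13. The cause of these shifts was not tested. Counts below about 50 per library, as in Col10a1, Col17a1 and Col2a1, limit what can be seen of the scarcest collagens.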
